A study of Rattus norvegicus with 18 samples.

Results

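The neuregulins and the epidermal growth factor (EGF) family are ligands of the ErbB receptor tyrosine kinases, and 9 of their genes were followed here in cultured rat bone marrow mesenchymal stem cells (BMSC). The ligand genes were Nrg1, Hbegf, Areg, Ereg, Tgfa and Btc, and the receptor genes were Egfr, Erbb2 and Erbb3. Every probe set whose annotated symbol was exactly one of these names was taken, which gave 19 of the 31099 probe sets on the array, for 9 of the 14218 genes with a symbol of their own. Nrg1 had 8 probe sets, Egfr 3, Tgfa 2 and each other gene 1. Of the 19, 17 passed the intensity filter of 3.22 log2 units and were tested, with all 9 genes among them. Nrg1 1371218_a_at passed it only through the 2-month HFD arrays, with a mean of 4.11 there and a mean below the filter in every other group. The genes were chosen by measured values of these arrays, the difference of Nrg1 and Egfr between diets at 2 months, so member values that include the 2-month HFD arrays are given as a description.

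The cells came from Sprague-Dawley rats that were 6 weeks old when feeding began. Rats on the high-fat diet (HFD) ate 60% basal diet, 20% lard, 10% sucrose and 10% egg yolk powder, and rats on the normal diet (ND) ate 100% basal diet. HFD and ND cells after 1, 2 and 4 months of feeding made 6 groups of 3 Affymetrix arrays each. Whole marrow was plated directly and the adherent cells were passaged in medium with 10% fetal bovine serum, so any cell type that adheres can be present. Passage 3 is named in the sample labels but passage 1 in the design text, and which holds is not settled.

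ErbB ligands are made as membrane proteins, and proteases of the ADAM family release them from the cell surface. Binding makes the receptors pair and phosphorylate each other, which switches on the ERK, AKT and STAT routes. Tgfa and amphiregulin (Areg) bind EGFR, heparin-binding EGF (Hbegf), betacellulin (Btc) and epiregulin (Ereg) bind EGFR and ErbB4, and neuregulin 1 (Nrg1) binds ErbB3 and ErbB4. ErbB2 has no known ligand and serves as the preferred partner, and ErbB3 has a weak kinase and signals through its partner. In marrow stromal cells EGFR ligands are known for effects on proliferation and osteogenic differentiation.

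The linear median intensity of an array was 25.4 to 27.1, and all values below are log2 intensities unless called linear. Of 12 mesenchymal stromal markers 11 were above the intensity filter, and the leptin receptor Lepr was not. All 19 macrophage markers were also above it on average. The 15 of them measured on all arrays had a summed linear intensity of 615 to 25744 between arrays, and their mean was 5.35, 6.59 and 8.03 on the HFD 2-month arrays and 9.55, 9.42 and 6.01 on the ND 2-month arrays. It was 7.24, 8.64 and 7.09 in HFD cells and 9.29, 5.87 and 4.37 in ND cells at 1 month, and from 9.14 to 9.57 in HFD cells and from 7.73 to 10.02 in ND cells at 4 months. Epithelial markers above the filter numbered 2 of 7, endothelial ones 1 of 7 and Schwann or glial ones 2 of 5, with the glial factor Sox10 below it on the 17 arrays with a value. In bulk samples such as these, fewer cells of a type and less RNA per cell cannot be told apart.

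Nrg1 was high in the HFD 2-month cultures. Neuregulin 1 is encoded by a long gene, at chromosome 16 from 65954084 to 67007484 in the RefSeq annotation of GRCr8, with many alternative transcripts. On the probe set 1369783_a_at the arrays read 8.86, 8.78 and 7.61 in HFD cells and 5.57, 6.48 and 5.37 in ND cells at 2 months. The lowest HFD array lay above the highest ND array. The group means were 8.42 ± 0.70 in HFD and 5.81 ± 0.59 in ND cells (SD, n = 3 each), or 342 and 56.0 in linear intensity. The difference was 2.61 ± 0.58 (SE), a fold of 6.11.

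The other Nrg1 probe sets did not all follow. Probe set 1370607_a_at read 7.38, 7.55 and 6.39 in HFD and 3.23, 4.62 and 3.61 in ND cells at 2 months, a difference of 3.28 ± 0.59. Probe set 1371211_a_at read 5.90, 5.84 and 5.07 in HFD and 2.77, 4.38 and 2.89 in ND cells, a difference of 2.25 ± 0.53. Probe set 1371212_at read 5.17, 5.26 and 4.69 in HFD and 3.08, 3.58 and 3.45 in ND cells, a difference of 1.67 ± 0.34. In each of these the HFD and ND arrays stood apart, and HFD replicate 3 was the lowest HFD array.

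A further 3 Nrg1 probe sets read near the intensity filter. The 1371218_a_at arrays were at 4.94, 4.02 and 3.37 in HFD and 2.78, 2.82 and 3.30 in ND cells, and the 1370616_at arrays at 4.26, 4.13 and 4.01 in HFD and 3.48, 3.65 and 3.72 in ND cells. On 1388258_at the diets overlapped, with 3.74, 3.45 and 2.98 in HFD and 3.11, 3.77 and 3.43 in ND cells. The untested 1388245_a_at, with a mean of 2.48 over all arrays, read 2.69, 2.75 and 3.07 in HFD and 2.26, 2.10 and 2.57 in ND cells. Of the 8 probe sets 7 had every HFD array above every ND array at 2 months, as did 11.8% of all tested probe sets. The difference of means ranged from -0.05 to 3.28. No reading is taken from this count, since Nrg1 was chosen for its 2-month difference. The 8 probe sets also read a single gene on the same arrays. Suffix _a_at marks probe sets that read alternative transcripts of a single gene. Which Nrg1 isoform each probe set reads was not given in the sources used here.

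**Figure D1:**
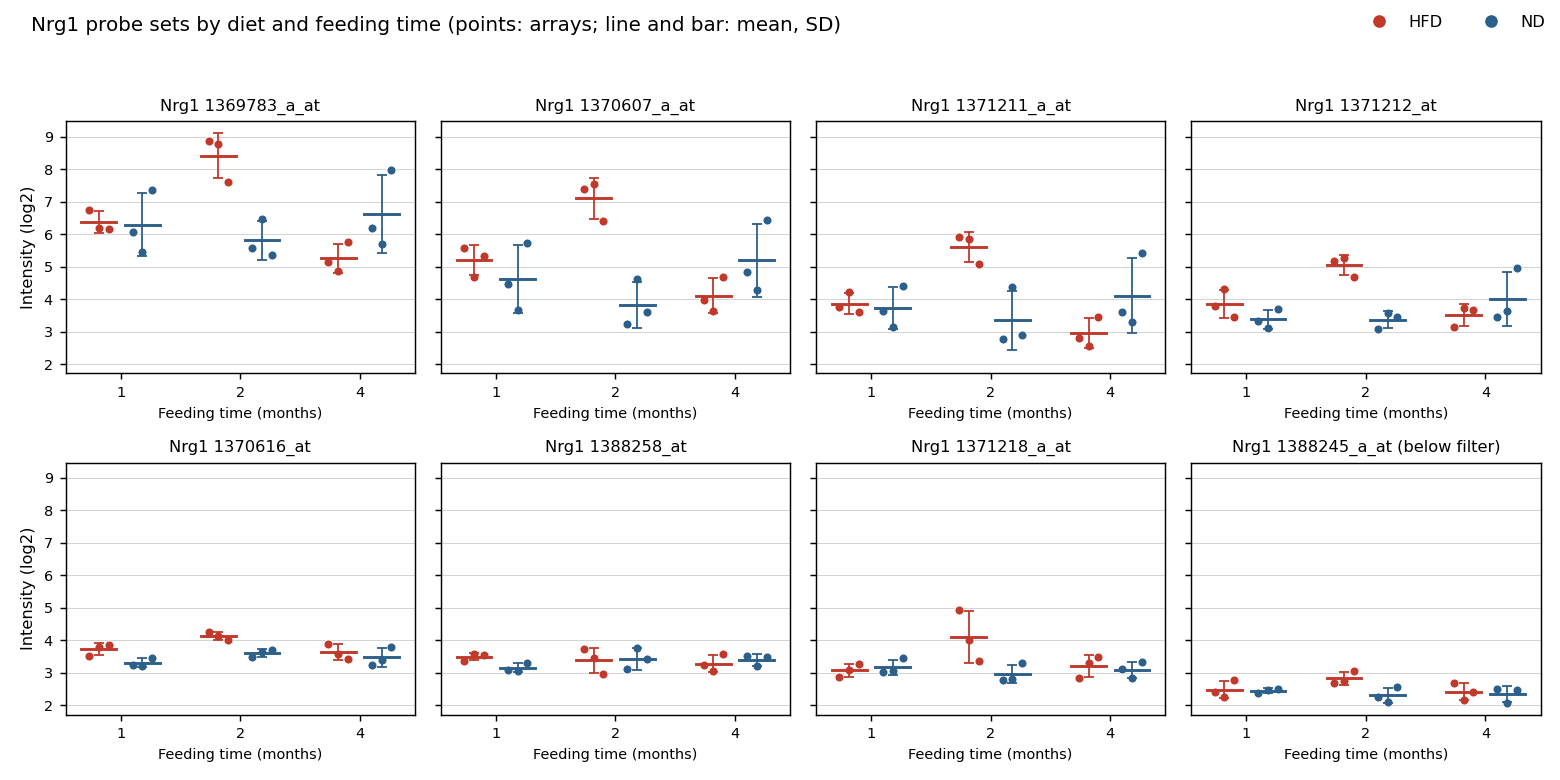
Log2 intensity of the 8 Nrg1 probe sets on every array, by feeding time in months, with HFD (red) left of ND (blue) and lines and bars for the mean and SD of 3 arrays. On 1369783_a_at, 1370607_a_at, 1371211_a_at and 1371212_at the HFD 2-month arrays sit above every ND 2-month array, and ND 4-month replicate 3 is the high ND array at 4 months.

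At 1 and 4 months no Nrg1 probe set passed the test between diets. At 1 month 1369783_a_at read 6.75, 6.20 and 6.16 in HFD and 6.07, 5.45 and 7.35 in ND cells, and 1370607_a_at read 5.57, 4.68 and 5.34 in HFD and 4.48, 3.67 and 5.72 in ND cells. The differences of 0.08 ± 0.58 and 0.57 ± 0.59 were no larger than their errors (limma adjusted p = 0.980 and 0.807). On the dim probe sets 1370616_at and 1388258_at all HFD arrays lay above all ND arrays at 1 month, by 0.42 ± 0.16 and 0.35 ± 0.20, and neither passed (limma adjusted p = 0.377 and 0.595).

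At 4 months the signs were mostly negative. The 1369783_a_at arrays read 5.13, 4.88 and 5.75 in HFD and 6.18, 5.69 and 7.98 in ND cells, and the diets overlapped. The difference was -1.36 ± 0.58 (limma adjusted p = 0.999, unadjusted 0.0325), and -0.68 without ND replicate 3. Probe set 1370607_a_at read 3.99, 3.63 and 4.69 in HFD and 4.85, 4.28 and 6.45 in ND cells, a difference of -1.09 ± 0.59, or -0.46 without ND replicate 3. For 1371211_a_at the difference was -1.16 ± 0.53, or -0.51 without that array, and for 1371212_at it was -0.50 ± 0.34, or -0.03 without it. Of the 8 probe sets 5 had the lower mean in HFD cells and 3 the higher one, and none separated the diets.

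The order of the 6 group means on 1369783_a_at began with HFD at 2 months (8.42 ± 0.70). ND at 4 months (6.62 ± 1.21), HFD at 1 month (6.37 ± 0.33), ND at 1 month (6.29 ± 0.97), ND at 2 months (5.81 ± 0.59) and HFD at 4 months (5.25 ± 0.45) followed. Each neighbouring pair in that order had overlapping arrays. Within HFD the 4-month arrays lay below all 1-month arrays on 1369783_a_at, with a difference of -1.12 ± 0.58 that did not pass (limma adjusted p = 0.655). Within ND the 4-minus-1-month difference was 0.33 ± 0.58 (limma adjusted p = 0.888), and -0.36 without ND 4-month replicate 3. The diet effect at 4 months minus that at 1 month was -1.44 ± 0.81 (limma adjusted p = 0.9995), so no change of the diet effect between those times was detected.

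The genes whose levels followed 1369783_a_at most closely over the arrays were found among 11445 genes, each by its brightest tested probe set. Tyro3, a receptor tyrosine kinase of the TAM family, had a Pearson r of 0.938 over the 17 arrays with both values, with group means of 5.36 in HFD and 4.17 in ND cells at 2 months. Next came Coq10b, a coenzyme Q binding protein (0.908), skeletal actin Acta1 (0.891), the histone gene Hist4h4 (0.890), integrin Itga7 (0.883) and the palmitoyltransferase Zdhhc2 (0.883), over 18 arrays each. The aminopeptidase Anpep, also known as CD13 and a common surface marker of mesenchymal stromal cells, was the least alike (-0.925), with 7.89 in HFD and 9.92 in ND cells at 2 months. Gamt, which makes creatine, followed (-0.897 over 17 arrays), then ribosomal protein Rpl7a (-0.895). These values describe arrays that share their cultures and the 2-month HFD group that defined the choice of Nrg1.

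Marker lists also differed between diets at 2 months. Of 6 smooth muscle genes, all above the filter, the 3 measured on all arrays averaged 9.72, 9.34 and 8.42 in HFD and 7.34, 7.89 and 8.20 in ND cells at 2 months. Their summed linear intensity ranged from 3694 to 5546 in HFD and from 1816 to 3443 in ND cells. The 11 mesenchymal genes measured on all arrays, Lepr included, averaged 9.21, 9.13 and 9.17 in HFD and 9.65, 9.62 and 9.51 in ND cells, again without overlap. Their members went both ways, with 6 means higher and 4 lower in HFD cells. The lower side held Cxcl12 (8.94 in HFD and 12.14 in ND cells), Nt5e (6.40 and 7.88) and Pdgfra (9.86 and 10.94), while Cd44, Itgb1, Pdgfrb, Eng, Col1a1 and Col1a2 had the higher mean in HFD cells and Thy1 was level. The 15 macrophage genes all had the lower mean in HFD cells, 1 of them without overlap. Of 6 adipocyte genes 5 were above the filter. The 5 adipocyte genes measured on all arrays all had the lower mean in HFD cells, with Lpl alone without overlap. Their summed linear intensity was 177 to 574 in HFD and 634 to 1497 in ND cells. Their array means overlapped, at 4.53, 4.21 and 3.76 in HFD and 4.48, 4.17 and 6.19 in ND cells. The part of these lists in the Nrg1 difference was not tested. With the macrophage mean as a covariate, an alternative chosen after seeing the data, the 2-month difference of 1369783_a_at was 2.32 and that of 1370607_a_at 2.95.

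Tgfa, transforming growth factor alpha and an EGFR ligand, was above the filter on every array, and both of its probe sets had their highest group means at 4 months. Its gene lies on chromosome 4 from 120175549 to 120258342 (GRCr8). On 1381449_s_at the 4-month HFD arrays read 9.43, 9.72 and 9.39 and the 1-month HFD arrays 8.63, 8.96 and 8.77, without overlap. In ND cells 4-month arrays read 9.72, 8.89 and 9.20 and 1-month arrays 8.83, 8.53 and 8.80, also without overlap. The differences of 0.72 ± 0.22 in HFD and 0.55 ± 0.22 in ND cells did not pass (limma adjusted p = 0.425 and 0.463), and the ND value was 0.32 without ND 4-month replicate 1.

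Probe set 1387450_at of Tgfa gave the same picture. It read 8.61, 8.89 and 8.37 in HFD cells at 4 months and 7.68, 8.16 and 7.73 at 1 month, and in ND cells 8.77, 7.93 and 8.20 at 4 months and 7.87, 7.64 and 7.91 at 1 month. Its differences were 0.77 ± 0.23 in HFD and 0.50 ± 0.23 in ND cells (limma adjusted p = 0.427 and 0.529), and the ND value was 0.26 without ND 4-month replicate 1. With array weights both probe sets passed in HFD, at 0.80 (limma adjusted p = 0.0424) for 1381449_s_at and 0.88 (limma adjusted p = 0.0426) for 1387450_at, where 2.0% of all tested probe sets passed under that setting and 0% in the unweighted fit. The macrophage mean also separated the 4-month from the 1-month HFD arrays, and with it as a covariate the HFD differences were 0.66 and 0.73. Neither passed in that fit, where 0% of all tested probe sets did. Suffix _s_at marks probes that can be shared by several transcripts, so the probe sets of Tgfa may not be independent.

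At 2 months the diets overlapped on both Tgfa probe sets. On 1381449_s_at the arrays read 8.26, 8.10 and 8.71 in HFD and 8.59, 9.04 and 8.42 in ND cells, and on 1387450_at they read 7.32, 7.15 and 7.76 in HFD and 7.64, 8.25 and 7.79 in ND cells. HFD minus ND was 0.07 and 0.05 at 1 month and 0.24 and 0.32 at 4 months, each within 1.5 SE (limma adjusted p = 0.953 and 0.966 at 1 month, 0.999 for both at 4 months).

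Promoters of Tgfa and Egfr are printed because the results over time turn on Tgfa and the receptor result on Egfr, and a RefSeq promoter was at hand for 6 of the 9 genes. Each runs from 250 bases before to 50 bases after the start site of the RefSeq promoter table, 5′ to 3′ on the plus strand of GRCr8, at chr4:120175469-120175768 for Tgfa and chr14:95378376-95378675 for Egfr. For Egfr that site is the first base of the gene given below, and for Tgfa it lies 170 bases inside the gene given above, so most of the Tgfa window overlaps it. Capitals mark GC boxes, the letters GGGCGG on either strand, which zinc finger factors of the Sp family are known to bind.
Tgfa: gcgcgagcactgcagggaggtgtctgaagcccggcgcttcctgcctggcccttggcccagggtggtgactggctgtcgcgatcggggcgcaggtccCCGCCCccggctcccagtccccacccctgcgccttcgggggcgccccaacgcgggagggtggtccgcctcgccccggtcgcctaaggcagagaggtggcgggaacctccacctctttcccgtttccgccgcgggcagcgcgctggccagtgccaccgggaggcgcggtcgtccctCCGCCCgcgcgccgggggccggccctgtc
Egfr: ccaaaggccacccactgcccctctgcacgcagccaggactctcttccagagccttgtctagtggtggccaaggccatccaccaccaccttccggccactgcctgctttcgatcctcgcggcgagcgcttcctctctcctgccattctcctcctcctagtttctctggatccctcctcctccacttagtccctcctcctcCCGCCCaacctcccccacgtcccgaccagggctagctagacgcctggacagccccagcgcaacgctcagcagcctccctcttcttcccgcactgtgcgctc
Tgfa held 2 GC boxes and Egfr 1, against 33.1% of 33469 RefSeq promoters of this length with at least 1. G and C made up 76.7% of the Tgfa and 64.3% of the Egfr window, with a median of 51.7% over all promoters. Neither window held TATAAA (14.2% of all promoters), the cyclic AMP element TGACGTCA (1.83%) or the AP-1 letters TGANTCA (7.33%), searched on both strands. Among the other promoters, Areg held 1 TATAAA, 1 TGACGTCA and 1 GC box, Btc and Erbb2 held 1 GC box each, and Hbegf held none of these motifs. A match describes letters only, and no binding was measured.

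Hbegf, which also serves as the receptor for diphtheria toxin in human cells, passed no test between diets. The arrays read 7.75, 8.28 and 7.87 in HFD and 8.12, 6.84 and 7.94 in ND cells at 1 month, 7.48, 7.84 and 7.77 in HFD and 7.58, 8.18 and 6.90 in ND cells at 2 months, and 8.08, 7.98 and 7.99 in HFD and 8.26, 7.77 and 8.50 in ND cells at 4 months. HFD and ND arrays overlapped at each time, and the differences were 0.33, 0.15 and -0.16 (SE 0.33 each). The ND groups spread more than the HFD groups, with SDs of 0.28, 0.19 and 0.05 in HFD and 0.70, 0.64 and 0.37 in ND cells at 1, 2 and 4 months.

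Btc, Areg and Ereg lie side by side on chromosome 14, within 332.593 kb from 16992668 to 17325260 (GRCr8), and all 3 read near the intensity filter. Areg ranged from 2.82 to 4.30, Ereg from 2.72 to 4.89 and Btc from 3.63 to 4.59 over the 18 arrays. The highest Ereg arrays were ND replicates 1 and 3 at 4 months, where it read 3.42, 3.84 and 2.72 in HFD and 4.42, 3.29 and 4.89 in ND cells. That difference of -0.87 ± 0.34 did not pass (limma adjusted p = 0.999, unadjusted 0.0213), and it was -0.53 without ND replicate 3 and -1.33 without ND replicate 2. Areg on the same 4-month arrays read 3.58, 3.55 and 3.54 in HFD and 4.30, 2.82 and 4.06 in ND cells, so ND replicate 2 was the low ND array for both genes. Neither Areg nor Btc had a diet difference beyond 1.5 SE at 1, 2 or 4 months.

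**Figure D2:**
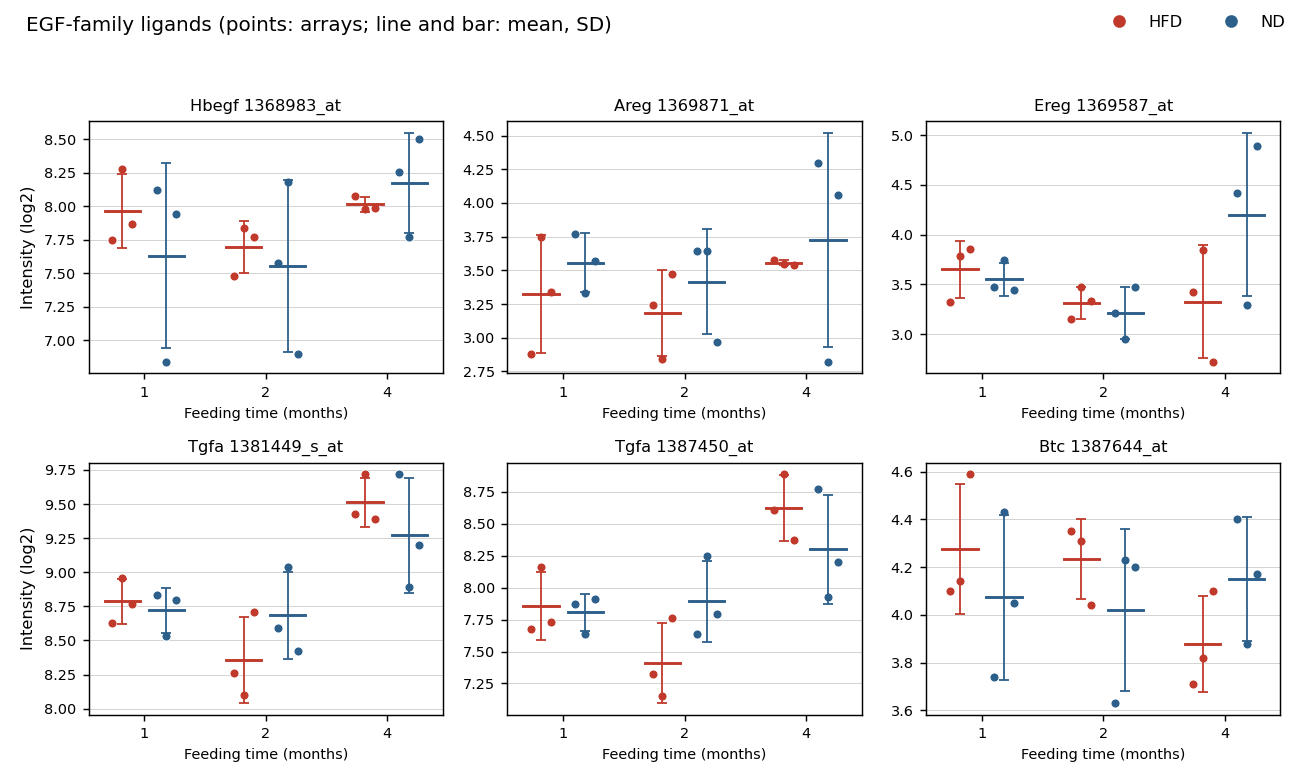
Log2 intensity of the Hbegf, Areg, Ereg, Tgfa and Btc probe sets on every array, by feeding time in months, with HFD left of ND and lines and bars for the mean and SD of 3 arrays, each panel on its own scale. Both Tgfa probe sets have their 4-month arrays above their 1-month arrays in both diets, and the diets overlap for Hbegf at every time.

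Egfr, the receptor shared by all of these ligands except Nrg1, was low in the HFD 2-month cultures on 1 of its 3 probe sets. The gene lies on chromosome 14 from 95378626 to 95551358 (GRCr8). Probe set 1370830_at read 4.54, 4.47 and 4.62 in HFD and 6.22, 5.87 and 6.57 in ND cells at 2 months, with every HFD array below every ND array. Means were 4.54 ± 0.07 in HFD and 6.22 ± 0.35 in ND cells (SD, n = 3 each), a difference of -1.68 ± 0.40, or 3.20-fold lower. With the macrophage mean as a covariate the difference was -1.93.

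Probe set 1381145_at of Egfr overlapped at 2 months, with 6.05, 6.17 and 6.80 in HFD and 7.03, 6.70 and 7.53 in ND cells and a difference of -0.75 ± 0.45. The untested 1385413_at read 2.59, 2.62 and 3.11 in HFD and 2.77, 2.95 and 3.04 in ND cells. All 3 probe sets had the lower mean in HFD cells at 2 months.

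At 1 month 1370830_at read 5.42, 5.19 and 5.61 in HFD and 5.06, 7.13 and 5.89 in ND cells. The difference of -0.62 ± 0.40 did not pass (limma adjusted p = 0.655), and it was -0.07 without ND replicate 2. At 4 months it read 5.28, 5.71 and 4.53 in HFD and 5.81, 5.64 and 5.46 in ND cells, a difference of -0.46 ± 0.40 (limma adjusted p = 0.999). On 1381145_at the differences were -0.25 ± 0.45 at 1 month and -0.08 ± 0.45 at 4 months (limma adjusted p = 0.911 and 0.999). These signs rest on single arrays, since 1381145_at was at 0.22 at 1 month without ND replicate 2 and at 0.27 at 4 months without HFD replicate 3. Without HFD replicate 3 the 4-month difference of 1370830_at was -0.14. The untested 1385413_at had the higher mean in HFD cells at 1 month, by 0.34.

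Erbb2, the partner without a ligand, held a narrow range of 4.93 to 5.54 over all 18 arrays. Its gene lies on chromosome 10 from 83907491 to 83931365 (GRCr8). Diet differences were -0.26 ± 0.15 at 1 month and 0.14 ± 0.15 at 4 months (limma adjusted p = 0.596 and 0.999). ND arrays read 5.06, 5.13 and 4.93 at 4 months and 5.23, 5.53 and 5.54 at 1 month, without overlap, and this difference of -0.39 ± 0.15 did not pass (limma adjusted p = 0.436).

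Erbb3, the neuregulin receptor with the weak kinase, had the higher mean in HFD cells at every feeding time. Its gene lies on chromosome 7 from 1579079 to 1600379 (GRCr8). The arrays read 3.73, 4.16 and 4.39 in HFD and 4.04, 3.83 and 3.69 in ND cells at 1 month, 4.30, 4.28 and 4.22 in HFD and 3.97, 4.02 and 3.93 in ND cells at 2 months, and 4.31, 4.03 and 4.09 in HFD and 3.61, 3.83 and 4.05 in ND cells at 4 months. Diets stood apart at 2 months alone. Over all arrays Erbb3 ranged from 3.61 to 4.39, near the intensity filter. The differences were 0.24 ± 0.16 at 1 month and 0.31 ± 0.16 at 4 months, and neither passed (limma adjusted p = 0.664 and 0.999). Erbb4, the other neuregulin receptor, read between 1.87 and 2.35 and stayed below the intensity filter.

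**Figure D3:**
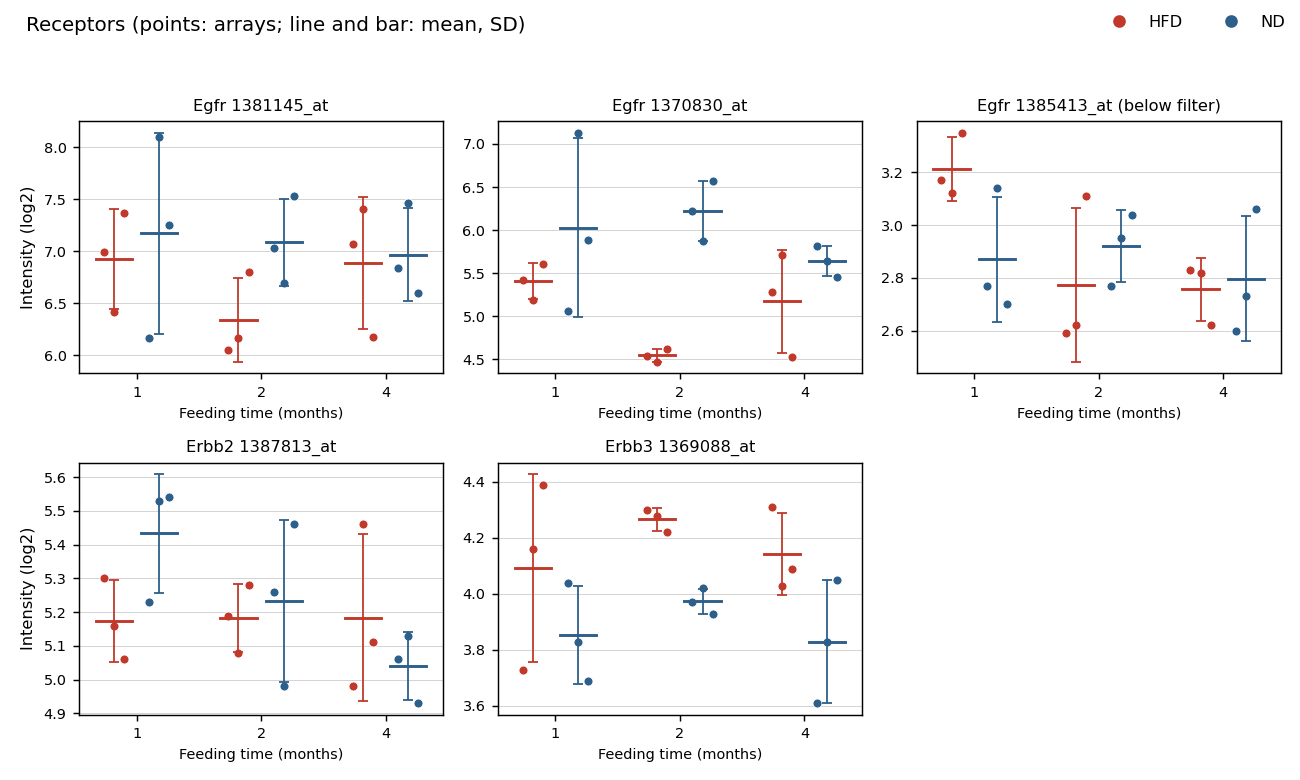
Log2 intensity of the Egfr, Erbb2 and Erbb3 probe sets on every array, by feeding time in months, with HFD left of ND and lines and bars for the mean and SD of 3 arrays, each panel on its own scale. The HFD 2-month arrays of Egfr 1370830_at lie between 4.47 and 4.62 and the ND 2-month arrays between 5.87 and 6.57.

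Counted over the 17 tested probe sets, none passed at an adjusted p under 0.05 in HFD against ND cells at 1 or at 4 months, and 0% of the 21729 tested probe sets passed in either comparison. At an unadjusted p under 0.05 the members numbered 1 at 1 month, where 9.77% of all probe sets did so, and 3 at 4 months, where 3.73% did. Those 3 were Nrg1 1369783_a_at, Nrg1 1371211_a_at and Ereg, and ND 4-month replicate 3 was the highest ND array at that time for each. Arrays did not overlap for 2 members at 1 month, both higher in HFD (background 5.92%), and for 0 at 4 months (background 8.54% in either direction). The median member difference was 0.10 at 1 month and -0.16 at 4 months, against -0.06 and -0.01 over all tested probe sets.

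At 2 months 5 members passed, 4 Nrg1 probe sets with the higher and 1 Egfr probe set with the lower values in HFD cells, against 2.54% of all tested probe sets. No reading is taken from this count, since these members were picked for it. It was 0 without HFD 2-month replicate 1, HFD 2-month replicate 2 or ND 2-month replicate 1, 2 without ND 2-month replicate 3, and 3 without HFD 1-month replicate 1 or 3, HFD 4-month replicate 1, ND 2-month replicate 2 or ND 4-month replicate 1. Arrays did not overlap for 7 members higher in HFD cells (background 11.8%) and 1 lower (background 12.9%).

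Over time, arrays did not overlap for 2 members higher (both Tgfa, background 8.64%) and 2 lower (Nrg1 1369783_a_at and 1371211_a_at, background 8.03%) at 4 than at 1 month in HFD cells, and for 2 higher (both Tgfa, background 4.12%) and 1 lower (Erbb2, background 8.51%) in ND cells. By the test, 0 of the 17 passed for 4 minus 1 month within HFD or within ND, and 0% of all tested probe sets did. At an unadjusted p under 0.05 these were 2 members in HFD (both Tgfa, background 7.92%) and 3 in ND cells (both Tgfa and Erbb2, background 9.39%). The test of whether the diet effect differed between 4 and 1 months also passed 0 members and 0% of all probe sets, with 0 members at an unadjusted p under 0.05 (background 3.25%). For 4 minus 2 months within HFD, a comparison added after seeing the data that shares the 2-month HFD arrays with the diet contrast, 3 Nrg1 probe sets were lower and both Tgfa probe sets higher at 4 months, against 0.704% of all tested probe sets called. Their differences ranged from -3.16 to -2.66 for Nrg1 on 1369783_a_at, 1370607_a_at and 1371211_a_at, and were 1.15 and 1.22 for Tgfa. No reading is taken from this count of called members, since values of the 2-month HFD arrays led to the choice of the genes. That count was 0 without any of the 3 HFD 4-month arrays, HFD 2-month replicate 1 or 2 or HFD 1-month replicate 3. It was 3 without HFD 1-month replicate 1, ND 2-month replicate 3 or ND 4-month replicate 1. With the replicate block it was 0, and also with the macrophage covariate, where 0.0184% of all tested probe sets were called.

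**Figure D4:**
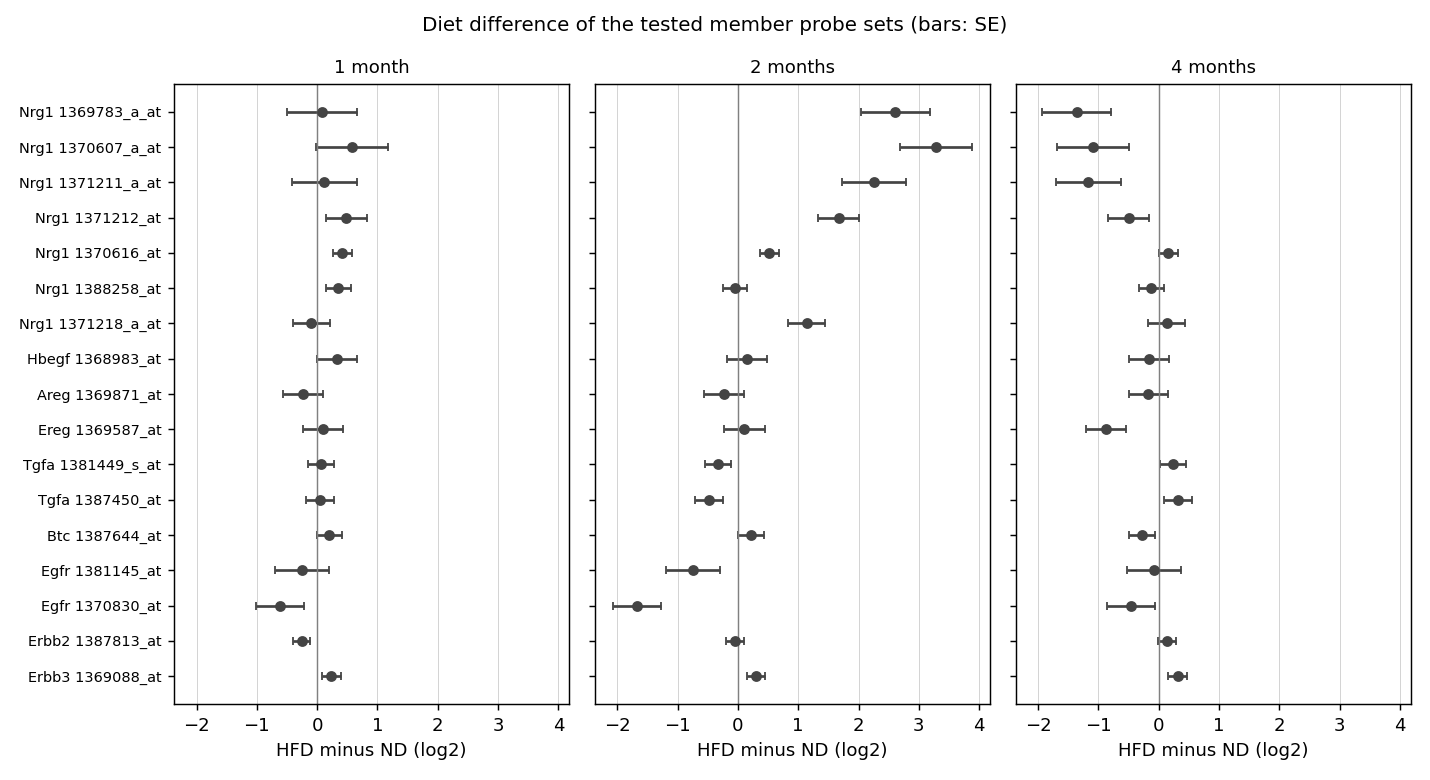
HFD minus ND in log2 units for the 17 tested probe sets at 1, 2 and 4 months of feeding, with points for the difference of means and bars for its SE. At 2 months the points of Nrg1 reach 3.28 and Egfr 1370830_at lies at -1.68, and at 1 and 4 months all points lie between -1.36 and 0.57.

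Other genes of the route were taken from 5 lists with 88 genes, of which 74 had a named probe set and 67 were tested. At 2 months 3 of the 67 passed in HFD against ND cells, all lower in HFD, where 2.49% of 11446 genes passed. At 1 and at 4 months 0 of 67 passed, and 0% of all genes did. The count at 2 months was 0 without HFD 2-month replicate 1 or 2 or ND 2-month replicate 1 or 2, and 5 without HFD 2-month replicate 3 or ND 1-month replicate 3.

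The feedback inhibitors held 2 of those 3 genes, out of 15 tested, where 2.49% of all genes passed. The list as a whole was not tested. Errfi1, also known as Mig-6, binds activated EGFR and blocks its kinase. It fell to 7.98, 8.65 and 9.44 in HFD cells at 2 months, against 10.61, 10.73 and 10.20 in ND cells, a difference of -1.82 ± 0.42 (limma adjusted p = 0.040). Socs3, which restrains cytokine signalling through JAK kinases, fell to 3.28, 3.26 and 3.70 in HFD cells, against 4.99, 4.89 and 4.38 in ND cells, a difference of -1.34 ± 0.29 (limma adjusted p = 0.0284). With the macrophage mean as a covariate Socs3 kept its call, at -1.03 (limma adjusted p = 0.0272), and Errfi1 at -1.59 did not (limma adjusted p = 0.0743). The median of the 15 genes was -0.0036, with 7 positive and 8 negative, against -0.04 over all genes.

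Among 21 tested adaptors and kinases 1 passed, where 2.49% of all genes did. Stat3, a transcription factor that EGFR and cytokine receptors activate, fell to 8.61, 8.65 and 8.74 in HFD cells at 2 months, against 9.24, 9.34 and 9.34 in ND cells. The difference was -0.64 ± 0.14 (limma adjusted p = 0.0268), and a further Stat3 probe set gave -0.63 (limma adjusted p = 0.0238). The macrophage mean as a covariate left Stat3 at -0.56 (limma adjusted p = 0.0466). The list median was -0.08, with 6 positive and 15 negative. At 1 and 4 months the differences of Errfi1, Socs3 and Stat3 lay between -0.69 and 0.29 and did not pass.

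The target genes of ERK signalling had 20 tested members and 0 that passed, with a median of 0.28 at 2 months, against -0.04 over all genes. Positive differences numbered 13 at 2 months, 13 at 1 month and 12 at 4 months. Ptgs2, the inducible cyclooxygenase, had the largest moderated t of the list at 2 months, with 8.48, 9.69 and 9.20 in HFD and 7.50, 7.63 and 6.00 in ND cells. Its difference of 2.08 ± 0.52 did not pass (limma adjusted p = 0.0506), and it passed under 8 of 29 alternatives. Fosb, a subunit of AP-1, followed with 1.61 ± 0.51 (limma adjusted p = 0.102).

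The sheddases and processing genes had 9 tested members and 0 that passed, with a median of -0.06. Adam19, a protease that cleaves neuregulin precursors, had values of 9.88, 10.51 and 9.56 in HFD and 8.77, 9.42 and 9.41 in ND cells at 2 months. These did not overlap, where 11.8% of all tested probe sets were higher in HFD cells without overlap. The difference of 0.78 ± 0.28 did not pass (limma adjusted p = 0.134). Adam10, the protease known for releasing betacellulin and EGF, had a difference of -0.44 ± 0.26 (limma adjusted p = 0.347). Of 6 other ligands and receptors of the family, 4 had a named probe set and 2 were tested, Egf with 0.04 ± 0.25 and Nrg2 with 0.41 ± 0.14 (limma adjusted p = 0.942 and 0.128). Nrg4 stayed below the intensity filter.

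Between 4 and 1 months 0 of the 67 genes passed in HFD or in ND cells, where 0% of 11446 genes did, with 41 higher and 26 lower at 4 months in HFD and 47 higher and 20 lower in ND cells. Adam17, the main protease that releases TGF-alpha, read 8.50, 8.64 and 9.18 in HFD cells at 4 months and 7.99, 8.57 and 7.92 at 1 month. Its difference was 0.61 ± 0.23 in HFD and 1.01 ± 0.26 in ND cells (limma adjusted p = 0.555 and 0.328). Rhbdf2, which encodes the ADAM17 partner iRhom2, read 7.04, 7.15 and 7.00 in HFD cells at 4 months and 5.82, 6.71 and 5.83 at 1 month. Its difference was 0.95 ± 0.31 in HFD and 1.10 ± 0.31 in ND cells (limma adjusted p = 0.467 and 0.369). Both genes were named for having the largest moderated t of their list. Without overlap, 8.64% of all tested probe sets were higher at 4 months in HFD cells and 4.12% in ND cells. In HFD cells the 4-month arrays of Rhbdf2 lay above all 1-month arrays, while those of Adam17 overlapped. In ND cells both genes had every 4-month array above every 1-month array with a value, which for Adam17 leaves out ND 1-month replicate 1. That array had a macrophage mean of 9.29, against 5.87 and 4.37 on the other ND 1-month arrays and 7.73 to 10.02 on the ND 4-month arrays. The part of the macrophage signal in these ND differences was not tested.

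Not all genes were higher at 4 months. Sphk1, sphingosine kinase 1 and a target of ERK signalling, read 8.16, 7.89 and 8.13 in HFD cells at 4 months and 8.93, 8.89 and 8.73 at 1 month, a difference of -0.79 ± 0.22 (limma adjusted p = 0.402). The target Junb, a subunit of AP-1, read 9.12, 8.73 and 8.49 in HFD cells at 4 months and 7.91, 7.81 and 8.09 at 1 month, a difference of 0.84 ± 0.19 (limma adjusted p = 0.335). The feedback inhibitor Dusp5, a phosphatase that inactivates ERK, read 7.26, 7.31 and 6.85 in HFD cells at 4 months and 5.28, 6.59 and 5.82 at 1 month, a difference of 1.25 ± 0.32 (limma adjusted p = 0.393). None of the 3 passed. Their arrays did not overlap between the times, where 8.64% of all tested probe sets were higher and 8.03% lower at 4 months without overlap. These genes were named for their large moderated t, so no reading is taken from that. In ND cells the adaptors and kinases with the largest moderated t had the lower means at 4 months, with differences of -0.77 ± 0.22 for Stat5b and -0.69 ± 0.20 for the docking protein Gab1 (limma adjusted p = 0.369 and 0.370).

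With array weights 7 of the 67 genes passed for 4 minus 1 month in HFD cells, or 10.4%, where 434 of 21729 probe sets (2.0%) did so and none did in the unweighted fit. They were Adam17, Rhbdf2, Junb, Dusp5 and Sphk1 (limma adjusted p = 0.0472, 0.0257, 0.0382, 0.0278 and 0.0385), with the GTPase Nras and the ubiquitin ligase Cbl. The macrophage mean was also higher at 4 months in HFD cells. With it as a covariate the differences were 0.53 for Adam17, 0.62 for Rhbdf2, 0.80 for Junb, 0.91 for Dusp5 and -0.83 for Sphk1. None of these passed in that fit, where 0 of the 67 genes and 0% of all tested probe sets did.

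**Figure D5:**
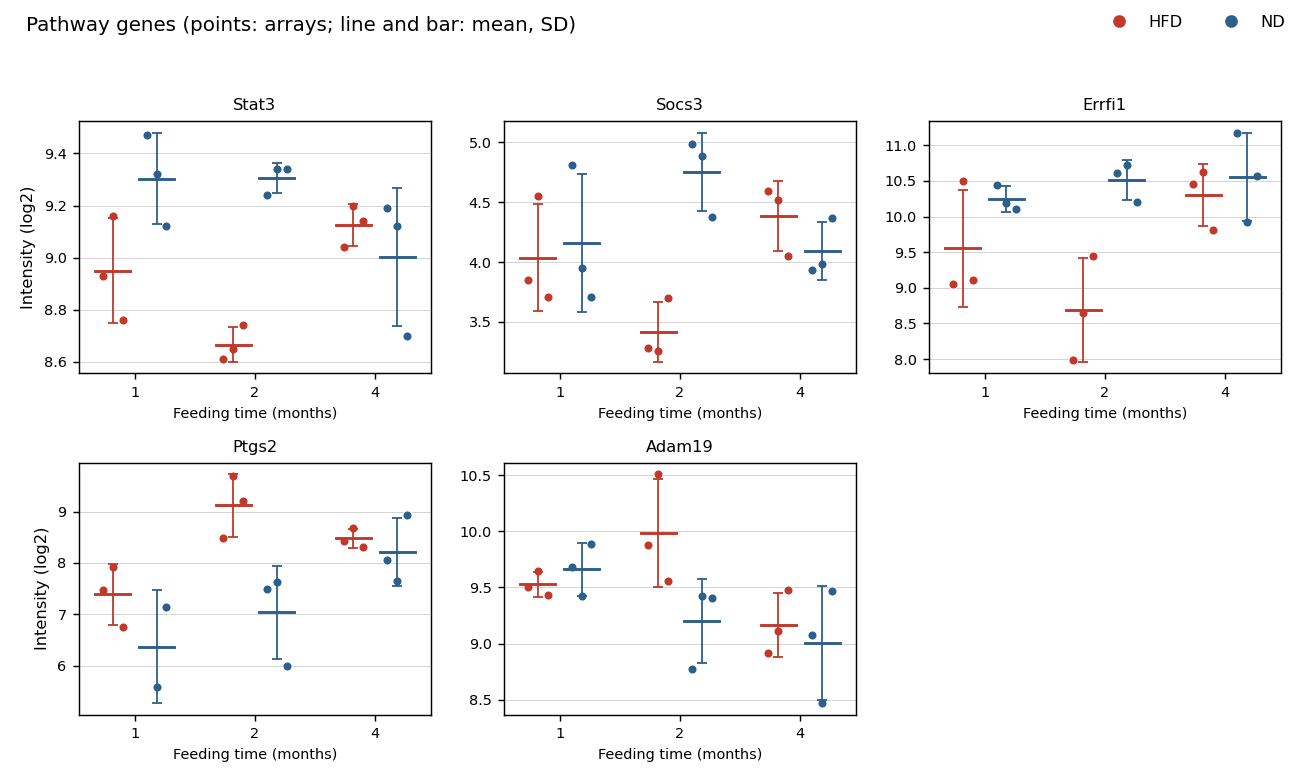
Log2 intensity of Stat3, Socs3, Errfi1, Ptgs2 and Adam19 on every array, by feeding time in months, with HFD left of ND and lines and bars for the mean and SD of the arrays with a value (3, or 2 for Ptgs2 in ND at 1 month), each panel on its own scale. Stat3, Socs3 and Errfi1 have all HFD 2-month arrays below all ND 2-month arrays.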

How the data were processed

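Total RNA of 18 cultures was hybridised to Affymetrix rat expression arrays. The authors deposited 1 linear intensity per probe set and array, and the submitters' processing notes name RMA with no version. The genome build behind the probe sets is not given in the sources used here. These intensities were converted to log2 with no pseudocount. For ND 1-month replicate 1 the column was moved down by its 1343 trailing empty cells, after which it correlated at 0.990 with the average of the 17 others, against 0.0909 as deposited. All 19 member probe sets have a value on that array.

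Symbols came from the platform annotation (20832 probe sets with 1 symbol, 436 with several, 9831 with none), and gene positions and promoters from RefSeq (GRCr8). The 57 control probe sets and the dimmest 30% of the other 31042, with a mean of 3.22 log2 (linear intensity 9.34) or less, were left out. The 21729 remaining probe sets were fitted in limma 3.58.1 (R 4.3.3) with 1 mean per group over all 18 arrays and default moderation, with 12 residual and 2.43 prior degrees of freedom. Tests are two-sided with Benjamini-Hochberg adjustment over all tested probe sets, and genes are represented by their brightest tested probe set. The labels do not say whether the 3 arrays of a group came from separate rats, so p-values reflect only how these arrays vary, which may be technical, and their number limits the precision.

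The members, the gene lists and the tests were chosen with earlier results of these data known. Named genes are all member probe sets. From each pathway list they are the genes that passed, or where none did those with the largest absolute moderated t, and the 6 most and 3 least alike genes to Nrg1 were added. The alternatives were other filters, normalizations, variance models, array weights, the compared arrays alone, a replicate block, averaged probe sets, the column as deposited and leaving out each array. The macrophage covariate and the comparison of 4 with 2 months within HFD were added after seeing the data. The fit was tested on simulated data.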

Additional observations from a re-analysis of the deposited data

How the results depend on the processing

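Over 29 alternatives 3388 member differences were recomputed. No called difference changed sign, and 129 differences that were not called did. Outside HFD minus ND at 2 months and 4 minus 2 months within HFD, 2 differences that had not passed did so. Both were for Tgfa in HFD at 4 minus 1 month with array weights. For those other comparisons only the counts of members that passed are given here. The count of members that passed at 2 months, 5, was 3 with the dimmest 50% of probe sets left out, 3 with the macrophage covariate, 2 with the replicate block, 1 gene with probe sets averaged, and 0 with the compared arrays only or the column as deposited. Leaving out 1 array gave 0 to 6. For 4 minus 2 months within HFD the count, also 5, was 8 with array weights, 2 genes with probe sets averaged, and 0 with the replicate block, the macrophage covariate or the column as deposited. Leaving out 1 array gave 0 to 7. For 4 minus 1 month within HFD the counts of 0 were 2 members and 7 pathway genes with array weights. The pathway count at 2 months, 3, was 11 with array weights and 0 with the compared arrays only or the column as deposited, and leaving out 1 array gave 0 to 5. Array weights raised calls over all 21729 probe sets too, to 19.9% at 2 months (16.4% of the 67 pathway genes), 14.8% for 4 minus 2 months and 2.0% for 4 minus 1 month within HFD. The other counts were 0 under every alternative run. The cause of these changes was not tested, except that fits of the compared arrays alone rest on fewer arrays and averaged probe sets give fewer features.

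The 2-month difference kept its sign under every alternative for Nrg1 1369783_a_at, 1370607_a_at, 1371211_a_at and 1371212_at and for Egfr 1370830_at. With each array left out it ranged from 2.39 to 3.01 for 1369783_a_at, from 2.99 to 3.69 for 1370607_a_at and from -1.85 to -1.50 for Egfr 1370830_at. Errfi1 missed the threshold under 10 of its 29 alternatives, Stat3 under 7 of 29 and Socs3 under 6 of 28. Replicate numbers were checked for pairing with the 9 same-numbered HFD and ND arrays of each time. Their residuals correlated between -0.571 and 0.440 with a mean of -0.0929, and 3 of 9 were over 0.1, so the numbers were not treated as pairs. With the replicate block the pathway count at 2 months was 2. Low signal limits Areg, Ereg, Btc, Erbb3 and the dim Nrg1 probe sets, which read near the intensity filter, as did Socs3 on the HFD 2-month arrays.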
